A study of Arabidopsis thaliana with 3 samples.

Results

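H2B and linker histone transcripts were measured in Arabidopsis thaliana seed. The genes are the H2B genes HTB2 (AT5G22880) and AT2G37470 and the linker histone genes AT1G06760, AT2G30620 and HIS1-3 (AT2G18050). They were taken as the probe sets that the platform annotation pairs with a single gene and that gene alone, which gave 5 probe sets for 5 genes, of 13286 loci with such a probe set. All RNA was total RNA of ecotype Columbia, hybridised to Affymetrix ATH1 arrays, with 1 array for each of 3 states. The states were unimbibed seed, untreated seed after 3 days of imbibition on plates, and seed that had taken up water for 3 days on plates containing trichostatin A (TSA), which blocks histone deacetylases. The TSA concentration was 10 µM as stated for the treated sample, while the shared treatment text gives it in another unit. Whole seeds were sampled, so fewer cells of a type and less RNA per cell cannot be told apart.

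H2B is a core histone. It pairs with H2A, and such pairs join H3 and H4 in the nucleosome, around which DNA is wound. Linker histones (H1) bind where DNA enters and leaves the nucleosome and help to compact chromatin. Arabidopsis has a pair of closely related main linker histones and the shorter HIS1-3, known as a variant induced by drought and abscisic acid. Most core histone genes are transcribed mainly while DNA is replicated, and plant histone transcripts carry poly-A tails. Dry seeds hold condensed chromatin, and cell division resumes around germination. Members of the H2B family are highly alike in their coding sequence, so a probe set paired with 1 H2B gene may still bind transcripts of another, and this was not tested here.

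The 2% trimmed mean of the deposited signals was 26.5 for the unimbibed, 43.4 for the untreated and 44.4 for the TSA array, and all were scaled to a common trimmed mean. A signal below 10.7, the 40th percentile of all scaled signals, was raised to that floor, so a ratio in which either signal was at the floor gives only a bound. The 3′ to 5′ ratio of the actin controls, which reflects RNA integrity, was 1.82 on the unimbibed array, 4.66 on the untreated and 4.31 on the TSA array, and that of a further actin set was 1.08, 1.096 and 1.43. The same ratio in the same order of arrays was 3.87, 3.17 and 2.71 for a ubiquitin control and 1.31, 0.876 and 1.497 for a GAPDH control. Neither of these was highest on the untreated array. A further ubiquitin set had 2.21, 2.02 and 2.12, and a further GAPDH set had 0.667, 0.913 and 0.757, highest on the untreated array. The poly-A control transcripts, scaled with the rest, differed by a log2 ratio of -1.68 between the untreated and unimbibed arrays and 0.43 between the TSA and untreated arrays. With 1 array per state no test was possible. Error was gauged from loci with several probe sets, whose log2 ratios varied within a locus with an SD of 0.75 for imbibition and 0.38 for TSA. The 18 hybridisation controls, added to each sample at a set amount, gave smaller SDs of 0.17 and 0.14. The variation between batches of seed is not in these values.

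HTB2 encodes a canonical H2B. Its scaled signal was 33.2 before imbibition, 65.3 after it and 27.1 after imbibition with TSA, from deposited signals of 23.1, 74.4 and 31.6. Untreated imbibed seed was thus the high state, and TSA-treated and unimbibed seed lay close together. The second H2B gene, AT2G37470, had scaled signals of 32.2, 28.7 and 10.7 in the same order, from deposited signals of 22.4, 32.7 and 12.5. TSA-treated seed was its low state, at the floor, while unimbibed and untreated imbibed seed differed by less than the SD within a locus. Both H2B signals were faint: those of HTB2 were 3.09, 6.08 and 2.53 times the floor, and those of AT2G37470 3.00 and 2.67 times the floor before it was reached with TSA.

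AT1G06760 and AT2G30620 encode linker histones. The scaled signal of AT1G06760 was 93.3 before imbibition, 200.1 after it and 168 after imbibition with TSA, from deposited signals of 64.9, 228.1 and 195.7. Both imbibed states were above the unimbibed one, and they differed from each other by less than the SD within a locus. AT2G30620 had scaled signals of 33.0, 259 and 162, from deposited signals of 23.0, 295.3 and 188.7. It was low in unimbibed seed and high in both imbibed states, with untreated seed the highest. HIS1-3 ran the other way. Its scaled signals were 118 before imbibition, 19.8 after it and 37.9 after imbibition with TSA, from deposited signals of 82.3, 22.6 and 44.1. Untreated imbibed seed was its low state, at 1.85 times the floor, and TSA-treated seed lay between the other states.

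**Figure D1:**
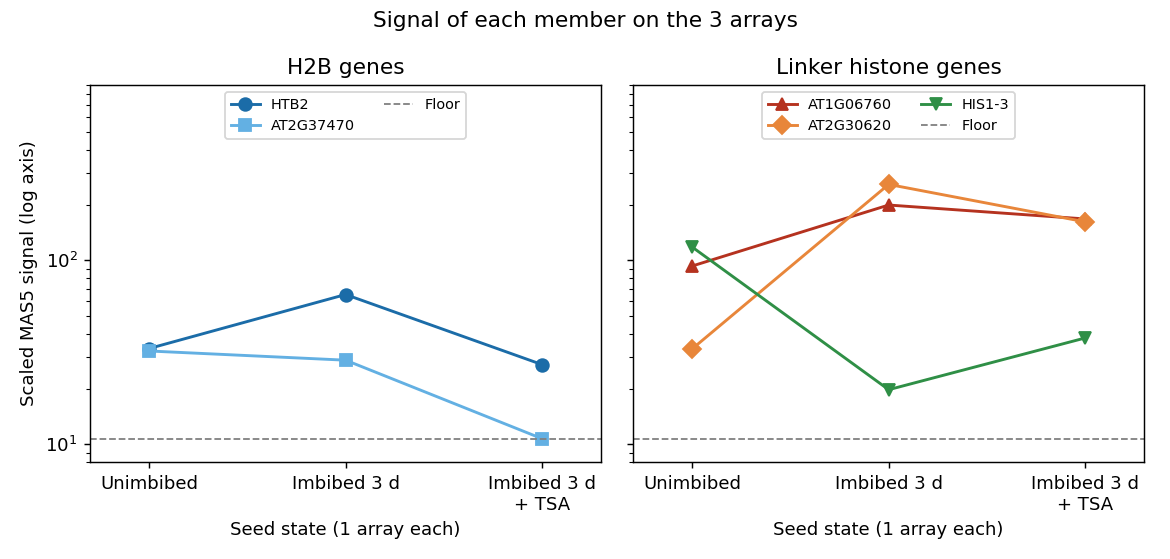
Scaled MAS5 signal on a log axis (vertical) in the 3 seed states (horizontal, 1 array each) for the H2B genes (left) and the linker histone genes (right); the dashed line is the floor of 10.7. HTB2, AT1G06760 and AT2G30620 were highest in untreated imbibed seed, HIS1-3 was lowest there, and AT2G37470 reached the floor with TSA.

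The first comparison, of untreated imbibed seed over unimbibed seed, is called imbibition here. The states differ in water uptake, in 3 days on plates and in any development over that time, which cannot be told apart. The linker histones AT2G30620 and AT1G06760 rose, by 7.84-fold and 2.15-fold (log2 ratios 2.97 and 1.102), and the linker histone HIS1-3 fell 5.96-fold (log2 ratio -2.58). HTB2 had a ratio of 1.97-fold (log2 ratio 0.98), just under the 2-fold set for a call, and AT2G37470 a log2 ratio of -0.17. So 2 of the 5 genes were called higher and 1 lower, against 22.6% called higher and 21.1% called lower of 16246 measured probe sets. Their median log2 ratio was 0.98, beside 0.01 over all measured probe sets. Of all measured probe sets 4.303% had a higher ratio than AT2G30620 and 4.70% a lower ratio than HIS1-3, whereas 20.6% lay above AT1G06760. The log2 ratios of AT2G30620 and HIS1-3 were larger than the SD of 0.75 within a locus by over 3 times, that of AT1G06760 by under 2 times.

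All of these values are relative to the average transcript of an array. Over all probe sets, higher calls made up 51.7% of calls, but 75.7% for the signals as deposited, and 76.7% and 92.3% where the hybridisation or the poly-A controls were set equal, and the median log2 ratio over all measured probe sets was 0.54, 0.57 and 1.22 under these scalings. HIS1-3 stayed below 0 under each of them, with log2 ratios of -1.86, -1.83 and -0.90, so that it was no longer called lower with the poly-A scaling. AT2G37470 turned to 0.55, 0.58 and 1.51. HTB2 passed 2-fold, at 1.69, 1.72 and 2.66.

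TSA-treated seed was compared with untreated imbibed seed to see what differed when the inhibitor was present during imbibition. Both H2B genes fell. HTB2 fell 2.40-fold (log2 ratio -1.27) and AT2G37470 2.67-fold (log2 ratio -1.42). The TSA signal of AT2G37470 equalled the floor, so its ratio was treated as a bound, but its log2 ratio was also -1.42 with no floor. None of the 3 linker histones passed 2-fold. AT2G30620 had a log2 ratio of -0.68 and AT1G06760 of -0.25, while HIS1-3 had 0.93, a 1.91-fold ratio. This put 2 of the 5 genes lower and 0 higher, against 9.51% called lower and 10.4% called higher of 15700 measured probe sets. The median log2 ratio of the 5 was -0.68, beside -0.03 over all measured probe sets. Of these, 5.64% had a lower ratio than HTB2 and 18.0% a lower one than AT2G30620. The ratio of HIS1-3 was exceeded by 11.6% of measured probe sets. The difference between the H2B and the linker histone genes was not tested, since 1 array per state allows no test.

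The direction of each of the 5 TSA ratios was the same under all 9 other scalings and floors tried. The poly-A scaling moved the median of all measured probe sets from -0.02 to -0.42 and the share of higher calls from 52.3% to 22.4%; under it HTB2 had -1.70, AT2G30620 -1.11 and HIS1-3 0.50. The call of AT2G37470 depended on the floor: its log2 ratio was -0.34 when the floor was set at the 60th percentile, and -0.74 with a constant of 16 added to each signal in place of a floor. With that constant HTB2 had -0.91 and was no longer called.

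TSA-treated seed was then compared with unimbibed seed. This comparison shares both its arrays with the first 2 and adds no new measurement. AT2G30620 rose 4.90-fold (log2 ratio 2.29), HIS1-3 fell 3.12-fold (log2 ratio -1.64) and AT2G37470 fell 3.00-fold, with its TSA signal at the floor. AT1G06760 had a log2 ratio of 0.85 and HTB2 of -0.29. In all, 1 of the 5 was called higher and 2 lower, against 23.3% called higher and 23.0% called lower of 16314 measured probe sets. The share of higher calls over all probe sets was 50.3%, and 75.2%, 73.1% and 86.7% with signals as deposited, hybridisation controls and poly-A controls. Under those 3 scalings the log2 ratio of HTB2 turned above 0 (0.45, 0.38 and 0.96), and neither HIS1-3 nor AT2G37470 was called lower.

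**Figure D2:**
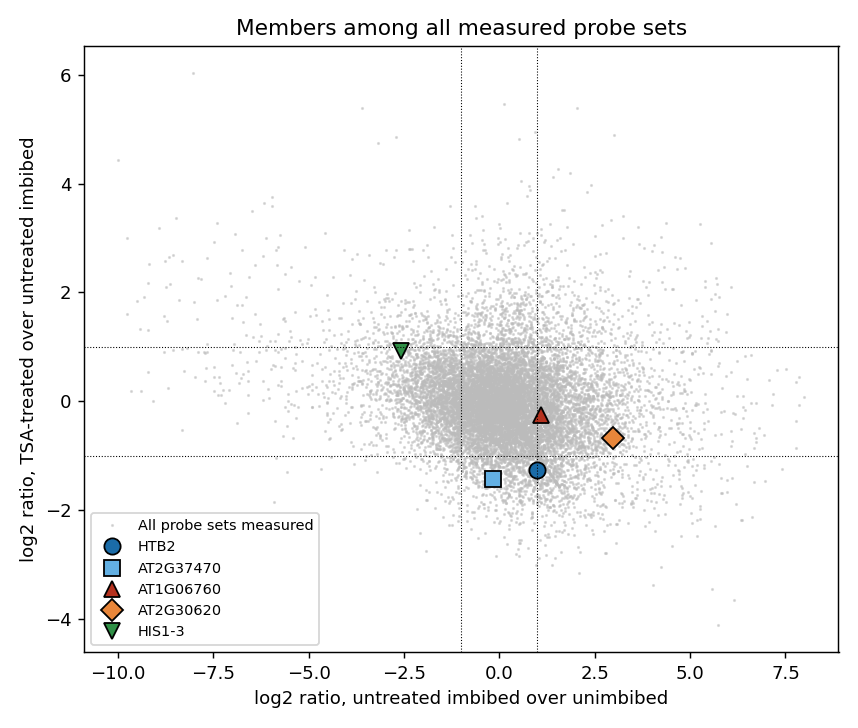
Log2 ratio for imbibition (horizontal) against log2 ratio for TSA (vertical); coloured symbols are the 5 histone genes, grey points all probe sets measured in both comparisons, and dotted lines mark 2-fold. Both axes use the untreated array, so they are not independent. HTB2 and AT2G37470 lie below the lower line for TSA, AT2G30620 and HIS1-3 at opposite ends for imbibition.

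The other genes of the H2B family split in the same comparisons. Of 11 H2B genes listed, 9 had their own probe set and 8 of these were above the floor in at least 1 state; AT5G02570 was not. On imbibition HTB1 rose from a scaled signal of 44.98 to 106.3 (log2 ratio 1.24), and HTB4 went from 83.8 to 148.9 (0.83) and HTB11 from 68.8 to 70.7 (0.04). Against these, AT1G08170 was at 702 in unimbibed seed and below the floor in both imbibed states, at least 65.4-fold lower. AT2G28720 went from 44.0 to below the floor, at least 4.095-fold lower, and AT3G09480 fell from 56.3 to 13.8 (log2 ratio -2.03). Thus 1 of the 8 measured H2B genes rose on imbibition and 3 fell, beside the 22.6% and 21.1% of all measured probe sets. Both with signals as deposited and with hybridisation controls 3 were higher and 3 lower, and with poly-A controls 5 and 2, while 2 were higher with quantile normalization or the 75th percentile scaling and 2 lower with a floor at the 60th percentile. The 8 had a median log2 ratio of -0.06 that turned to 0.65 and 0.68 for deposited signals and hybridisation controls. It was 0.01 with 75th percentile scaling. With poly-A controls and with the floor at the 25th percentile AT5G02570 was measured too, and the median including it was 1.51 and 0.04.

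With TSA the H2B genes that could be measured lay on 1 side. HTB1 fell from 106.3 to 50.6 (log2 ratio -1.07), close to its scaled signal in unimbibed seed (log2 ratio 0.17). This closeness depended on the scaling. The ratio of HTB1 over unimbibed seed was 0.91, 0.84 and 1.42 with deposited signals, hybridisation controls and poly-A controls. HTB4 went from 148.9 to 99.3 (-0.58), HTB11 from 70.7 to 45.9 (-0.62) and AT3G09480 from 13.8 to below the floor (-0.36 as a bound). All 6 measured H2B genes, HTB2 and AT2G37470 included, had log2 ratios below 0, with a median of -0.85. The median over all measured probe sets was -0.03, and -0.42 with poly-A scaling, so a ratio below 0 was common in itself. Of the 6 H2B genes 3 were called lower, beside 9.51% called lower of all measured probe sets. The number called lower was 0 with 16 added, 2 with a floor at the 60th percentile, 4 with a floor at the 25th percentile or none, and 6 with poly-A scaling. The 6 ratios stayed below 0 under every other scaling and floor tried, with 1 exception. AT3G09480 was at the floor on both arrays, and so had a ratio of 0, with the floor at the 60th percentile. AT1G08170 and AT2G28720 were below the floor in both imbibed states, so no ratio is given. TSA left the signal of AT1G08170 at 1.72, beside 1.404 without it. The 6 ratios come from the same untreated and TSA arrays, so they are not independent of each other. The H2B genes may also share hybridising sequence, which was not tested.

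No H2A gene had a probe set of its own, and the only such H3 genes, HTR12 (the centromeric H3) and AT1G13370, were below the floor on all 3 arrays. For H3 and H4, however, 13 probe sets are paired jointly with several loci of a single class, and they were looked at after their values had been seen. They name no gene, and which of its paired loci each probe set reports was not tested. The 5 shared by the H3.1 loci, the form of H3 deposited while DNA is replicated, had log2 ratios for imbibition from -1.68 to 3.98, with 4 higher and 1 lower, and for TSA from -1.96 to -0.86, with 4 lower and 0 higher. The 5 shared by the H4 loci had 0.33 to 1.91 for imbibition, with 4 higher, and -1.36 to -0.49 for TSA, with 2 lower. Of all measured probe sets, 22.6% were called higher and 21.1% lower for imbibition, and 10.4% higher and 9.51% lower for TSA. The 3 shared by the H3.3 loci, the form deposited independently of replication, had -0.63 to -0.05 for imbibition and -0.30 to 0.29 for TSA, with none of the 3 past 2-fold in either comparison. Under TSA the H3.1 probe sets were below 0 under every scaling and floor tried, while 2 of the 3 H3.3 ones changed sign between scalings. The calls among them depended on the setting: with 16 added 2 H3.1 and 1 H4 probe sets were lower, with a floor at the 60th percentile 3 and 1, and with poly-A scaling 5 and 3. The H3.1 probe set that fell on imbibition went from 134 to 41.8 and then below the floor with TSA, unlike the other 4, and with the poly-A scaling its imbibition ratio was 0.01.

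**Figure D3:**
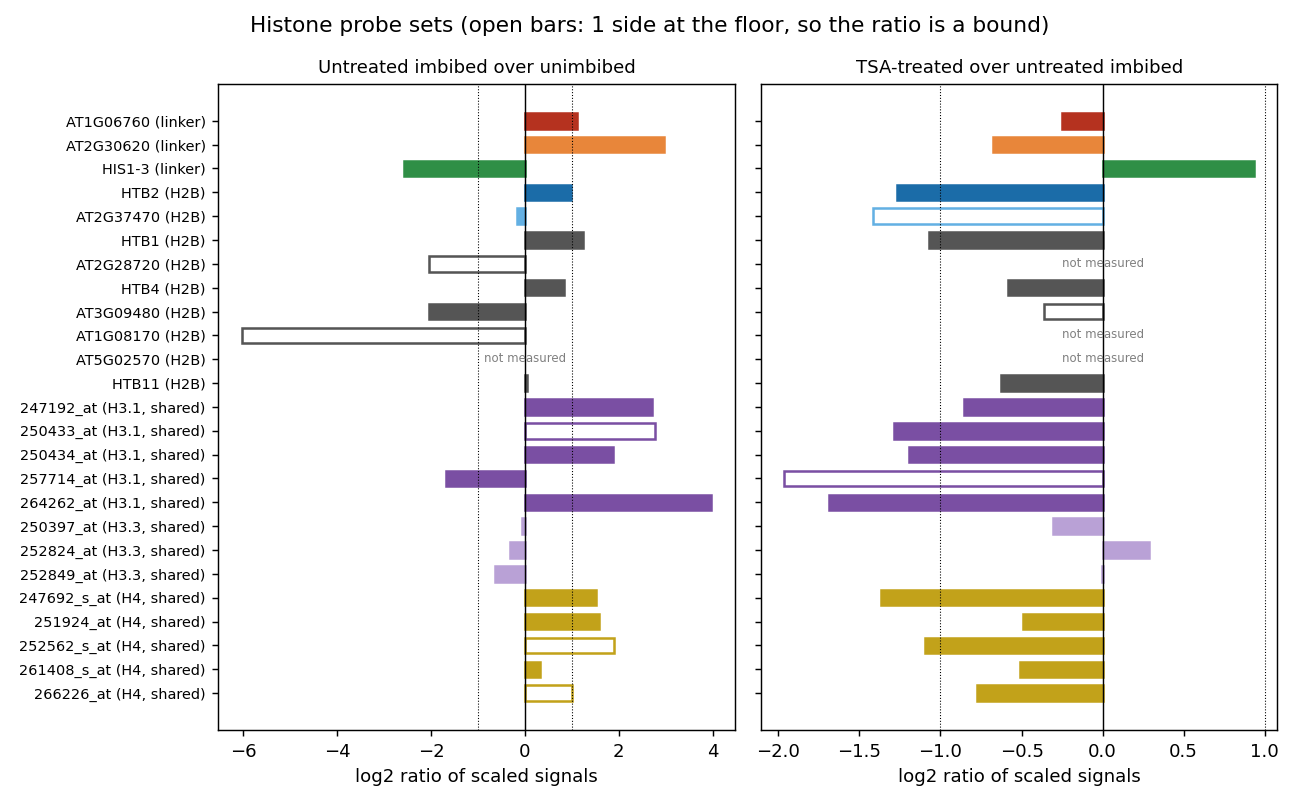
Log2 ratios of histone probe sets for imbibition (left) and TSA (right); bars show single ratios, open bars are bounds with 1 side at the floor, and dotted lines mark 2-fold. Probe sets marked shared are paired with several loci of the class. All 6 measured H2B genes and all H3.1 and H4 probe sets lie below 0 with TSA, HIS1-3 lies above 0, and the 3 H3.3 probe sets lie between -0.30 and 0.29.

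Few genes that act with H2B or with DNA replication had an own probe set. Of 27 DNA replication genes listed, 2 did: PRL, the MCM7 subunit of the replicative helicase, was below the floor in unimbibed seed and at 34.2 after imbibition, at least 3.19-fold higher, and at 19.2 with TSA (log2 ratio -0.84). With the floor at the 60th percentile the imbibition log2 ratio of PRL was 0.60, short of a call. ICU2, the catalytic subunit of DNA polymerase alpha, was above the floor only in untreated imbibed seed, at 15.6, which bounds its log2 ratios at 0.54 and -0.54. Of 17 mitosis and cell cycle genes, the Aurora kinases AUR1 and AUR2 were measured. AUR2 fell on imbibition (log2 ratio -1.56, but 0.12 with the poly-A scaling) while AUR1 had 0.41, and their TSA ratios were -0.16 and 0.03. None of these 4 genes was called with TSA, where 9.51% of all measured probe sets were called lower and 10.4% higher. With poly-A scaling PRL (-1.27) and ICU2 (-1.29) were called lower, and ICU2 also was with a floor at the 25th percentile (-1.67) or none (-1.92).

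Histone chaperones and other chromatin genes were as sparsely covered. ASF1B, a chaperone of H3 and H4, was at least 2.10-fold higher after imbibition and had a TSA log2 ratio of -0.08. The imbibition call of ASF1B depended on the floor: its log2 ratio was 0.00 with the floor at the 60th percentile. Its relative SGA2 (ASF1A) had log2 ratios of -0.71, which turned above 0 with either control scaling, and -0.79. UBP26, which removes ubiquitin from H2B, was below the floor in unimbibed seed and at 14.7 after imbibition and 13.1 with TSA. HON4, a further protein annotated with a histone H1 synonym, fell on imbibition, from 123.1 to 57.3 (log2 ratio -1.10, but 0.58 with the poly-A scaling), and had -0.10 with TSA. Among deacetylases, the enzymes that TSA targets, HDA15 had a log2 ratio of -0.32 with TSA and also on imbibition, where it turned above 0 with signals as deposited and either control scaling, and HDA7 was below the floor on all 3 arrays. None of the 5 genes measured on these 4 lists was called with TSA, where 9.51% of all measured probe sets were called lower and 10.4% higher, and SGA2 was called lower with poly-A scaling (-1.23).

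Drought and abscisic acid response genes were listed because HIS1-3 is known to respond to both. Of 27 listed, 4 had a probe set of their own and 3 were measured. LTI30, a dehydrin, went from 2708 in unimbibed seed to 50.6 in untreated imbibed seed and 422 with TSA, log2 ratios of -5.74 and 3.06. LTI30 was lower after imbibition, and higher with TSA than without it, as HIS1-3 was in direction, though HIS1-3 did not pass 2-fold with TSA. All 4 measured storage and oil body genes, described next, had these same directions. Both ratios use the untreated array, so they are not independent. COR47, a further dehydrin, was below the floor in unimbibed seed, at 133 after imbibition and at 1227 with TSA (log2 ratio 3.20). COR15B had log2 ratios of -0.02 and 0.34, and COR15A was below the floor throughout. With TSA 2 of the 3 were called higher and 0 lower, with a median of 3.06. Of all measured probe sets 10.4% were called higher and 9.51% lower.

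The labelled tissue was checked against markers. All 4 measured storage and oil body genes (PAP85, AT2G28490, AT3G01570 and AT2G25890, of 12 listed) fell on imbibition, and their summed scaled signal went from 22785 in unimbibed seed to 88.2 in untreated and 517 in TSA-treated seed. All 5 measured genes of green tissue (RCA, LHCB4.1, LHCB4.2, PSAN and PORB, of 8 listed) rose on imbibition, with sums of 222, 2095 and 7695. With TSA, 3 of the 4 and 4 of the 5 were called higher. Of all measured probe sets, 21.1% were called lower and 22.6% higher on imbibition, and 10.4% higher with TSA. Of the seed coat and endosperm list, DFR had 16.7, 18.3 and 59.8 and BAN was below the floor on all 3 arrays. Both sums were thus higher with TSA, where the H2B ratios were below 0, and the part of such shifts in tissue markers in the histone ratios was not tested.

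The genes most like each histone gene in pattern were sought among 5231 other probe sets with a single gene and above the floor on all arrays, by the distance between their log2 ratios for imbibition and TSA. AT2G37470 was at the floor with TSA and was left out. HTB2 had AT5G02370, AT4G27090 and AT1G19600 as nearest, at distances of 0.05, 0.07 and 0.08. AT1G06760 had AT1G11540, AT4G20310 and AT1G04780 (0.04, 0.05 and 0.05). AT2G30620 had AT4G10270, AT4G29480 and AT5G62890 (0.04, 0.08 and 0.11), and HIS1-3 had AT3G16190, AT1G50020 and AT2G22080 (0.05, 0.06 and 0.12). None of these 12 was on a histone or DNA replication list, but few listed genes could have been found. PRL, ICU2, HTR12 and AT1G13370 were not above the floor on all arrays, and no H2A or H4 gene had its own probe set. Of the H2B genes outside the members, only HTB1, HTB4 and HTB11 were candidates. With 3 arrays many genes lie this close, and each distance is well under the SD within a locus.

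**Figure D4:**
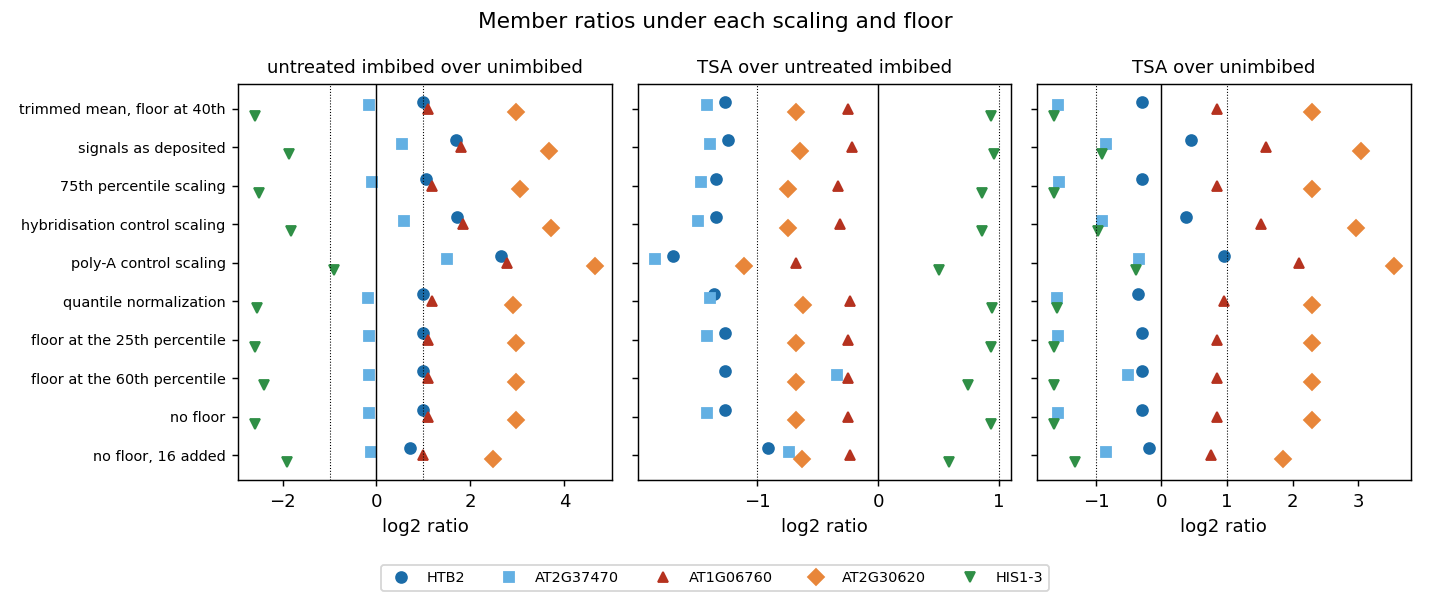
Log2 ratio (horizontal) of each of the 5 histone genes under 10 combinations of scaling and floor (vertical), for the 3 comparisons; dotted lines mark 2-fold. The TSA ratios over untreated seed kept their sides of 0 in every row, while for both comparisons with unimbibed seed the 3 rows for deposited signals, hybridisation controls and poly-A controls lie to the right of the others.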

How the data were processed

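The deposited table holds linear intensity values, 1 per probe set and array; the authors used MAS5, according to the submitters' processing notes. The MAS5 version and scaling target are not given in the sources used. Of 22810 probe sets, 64 AFFX controls were left out. Because the trimmed means differed by 46.8% of their mean, over the limit of 5%, the arrays were multiplied by 1.44, 0.877 and 0.859 (unimbibed, untreated, TSA). Calls needed a 2-fold ratio in probe sets above the floor on at least 1 array of a comparison. A single gene was paired with 13513 probe sets, several genes with 503 and none with 8730. Names were updated through the RefSeq gene table of TAIR10.1, whose gene positions were used only to find adjoining genes. The members and gene lists were chosen with earlier results of these data known, from general knowledge, so counts over lists are descriptions. The text names every measured gene of each list and the 3 genes nearest each member. Alternatives were other scalings, floors and folds. The calling procedure was tried on simulated arrays, with changes placed only in brighter probe sets and less noise than the SD within a locus. That checks the procedure and does not bear on faint signals such as those of AT2G37470. Promoters and proteins were not analysed here. Python 3.11.15, numpy 2.4.6 and pandas 2.3.3 were used.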

Additional observations from a re-analysis of the deposited data

How the results depend on the processing

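Each state had 1 array, so the signal over background and the number of arrays limit every value, and none of the arrays could be left out. No paired analysis was possible because each state has a single array. On imbibition, 2 genes were called higher and 1 lower; 4 were higher and 0 lower with poly-A controls set equal, and 1 was higher with a fold of 3 or with 16 added in place of a floor. With TSA over untreated seed, 0 were higher and 2 lower; 1 was higher with a fold of 1.5, and 1 was lower with the floor at the 60th percentile, 0 with a fold of 3 and 0 with 16 added. With TSA over unimbibed seed, 1 was higher and 2 lower; 2 were higher with signals as deposited, hybridisation controls, poly-A controls or a fold of 1.5, and 0 were lower with the first 3 of these, while 1 was lower with the floor at the 60th percentile, a fold of 3 or 16 added. A stricter fold, a higher floor and an added constant shrink ratios or raise the limit by construction, and the control scalings shift all ratios between signals above the floor by a constant. The other alternatives gave counts within 1.5 times. No call reversed. Over all probe sets, higher calls numbered 2189 (fold of 3) to 9789 (poly-A controls) for imbibition, against 3669, and 678 to 3217 for TSA over untreated seed, against 1639.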

Other observations

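The genes that adjoin the 5 histone genes in the gene table followed other patterns where they were measured. Of 10 adjoining protein-coding genes, 4 had a probe set of their own and 3 of these were above the floor in unimbibed or untreated imbibed seed. AT5G22875, beside HTB2, went from 76.2 in unimbibed seed to 19.7 in untreated and 24.2 in TSA-treated imbibed seed (log2 ratios -1.95 and 0.29), where HTB2 was highest in untreated seed. AT2G37480, beside AT2G37470, had 2 probe sets with log2 ratios of -1.75 and -1.40 for imbibition and 0.22 and 0.05 for TSA. AT1G06750, beside AT1G06760, was at 31.3 in unimbibed seed on the 1 probe set of 2 that passed the floor and below it in both imbibed states. AT2G30630, beside AT2G30620, was below the floor on all 3 arrays.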
